A study of Mus musculus with 12 samples.

Results

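Glycolysis and the response to low oxygen are covered by 39 of the 58735 genes listed for the series. The 39 genes were chosen by name, from gene function, with earlier results of these data known. They were found through the full names the file pairs with human Ensembl identifiers, which gave a match for all of them. They comprised 15 glycolytic enzymes, 2 enzymes that set the level of fructose-2,6-bisphosphate, 3 enzymes of lactate and pyruvate, 4 transporters of glucose or lactate, 4 oxygen-sensing genes, 8 other hypoxia-response genes and 3 glycogen enzymes. RNA was sequenced from U2OS cells, a human osteosarcoma line, in 12 libraries of 4 groups with 3 replicates each: blank cells, cells with overexpression of the long non-coding RNA LINC01134 (OE-LINC01134), and cells given either of 2 siRNAs against the splicing factor SRSF1 (siSRSF1-2 and siSRSF1-3). All groups share the U2OS background. The controls are labelled only as blank, and no library of cells with an empty vector or a control siRNA was used here, so that the effect of introducing an agent and that of the agent itself cannot be told apart. The labels of these libraries give neither a dose nor a time, and they do not say whether replicates were separate cultures, so each p-value measures only the spread between these libraries, which may be technical.

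In glycolysis, glucose enters the cell through carriers such as SLC2A1 and is broken down in a chain of cytosolic enzymes to pyruvate, which lactate dehydrogenase turns into lactate for export. When oxygen is short, prolyl hydroxylases such as EGLN1 no longer mark HIF-1α, the protein of HIF1A, for degradation, and HIF-1α with its partner ARNT switches on most of the enzymes of this pathway together with genes such as NDRG1, BNIP3 and P4HA1. HIF-1α is set mainly through the stability of the protein, so that its mRNA level and its activity need not move together. Many tumour lines, osteosarcoma lines among them, run glycolysis at a high rate also when oxygen is present.

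Values are FPKM, a unit that counts fragments per kilobase of a gene and corrects for the size of the library. Between 26237763 and 32954539 reads fell on genes in each library. SRSF1 fell from 35.9, 19.8 and 20.5 FPKM in the blank libraries to 7.09, 7.46 and 7.41 with siSRSF1-2, and it read 3.33, 6.81 and 7.90 with siSRSF1-3, without overlap in both cases (exact two-sided permutation p = 0.1, the smallest that 3 against 3 libraries allow). LINC01134 read 0.497 to 0.791 FPKM in blank cells and 891, 1279 and 878 in OE-LINC01134 cells. The FPKM sum of siSRSF1-3 replicate 1 was 611084, against 281051 to 410612 in the other 11 libraries, and the siSRSF1-3 libraries differed widely from each other. Blank replicate 1 and OE-LINC01134 replicate 2 each stood apart from the other libraries of their group, while the 3 siSRSF1-2 libraries, blank replicates 2 and 3, and OE-LINC01134 replicates 1 and 3 were much closer to each other than the other pairs within groups. Over the 17538 genes tested, and as a description, blank replicate 1 and OE-LINC01134 replicate 2 had a Pearson r of 0.952 on log2(FPKM + 0.1) with each other, above the 0.935 and 0.937 of the former with its own group and the 0.941 and 0.940 of the latter. These libraries of different groups thus resembled each other more than either resembled its own group, and the labelled groups were kept. Mesenchymal markers were expressed, 9 of 10 with a mean of at least 0.5 FPKM (the collagen gene COL1A2 was at or near 0), as were 5 of 6 epithelial markers, the keratins KRT8 and KRT18 among them. Of 6 blood and endothelial markers 1 reached that level. The 10 mesenchymal markers summed to 587 to 652 FPKM in blank cells, 308 to 605 with OE-LINC01134, 365 to 374 with siSRSF1-2 and 373 to 1151 with siSRSF1-3, and the 6 epithelial markers to 107 to 188, 64.8 to 151, 64.2 to 67.2 and 73.3 to 225. The part of these shifts in the results for glycolytic genes was not tested.

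Most of the glycolytic chain was among the most abundant mRNAs of blank cells. GAPDH, which oxidises glyceraldehyde-3-phosphate, led with 1143 ± 117 FPKM (SD, n = 3) and stood above 99.9% of the genes tested. It was followed by the enolase ENO1 at 621 ± 29.2, the pyruvate kinase PKM at 328 ± 39.9, the triosephosphate isomerase TPI1 at 268 ± 17.5 and the lactate dehydrogenase LDHA at 180 ± 31.7. The blank libraries of these 5 genes did not overlap between neighbours in this order, whereas LDHA overlapped with the next gene, PGK1 (145 ± 26.6), and PGK1 with the phosphoglycerate mutase PGAM1 (143 ± 10.6). Among isoenzymes, which catalyse the same step, the hexokinase HK1 read 65.9 ± 4.82 and HK2 18.3 ± 4.61. The phosphofructokinase PFKP read 29.1 ± 3.63, PFKM 15.7 ± 0.683 and PFKL 14.8 ± 3.00. The last 2 overlapped. The glucose carrier SLC2A1 (26.7 ± 1.12) and the lactate carrier SLC16A1 (28.4 ± 2.61) were well above the lactate exporter SLC16A3 (1.31 ± 0.383). At the low end, ANKRD37 read 0.978 ± 0.0819 and the oxygen sensor EGLN3 0.742 ± 0.307. EGLN3, with 4 to 218 reads per library, was the member whose mean over the 12 libraries was under 0.5 FPKM, so that 38 members of 17538 genes were tested. None of the 38 reached this minimum through the libraries of a single group.

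**Figure D1:**
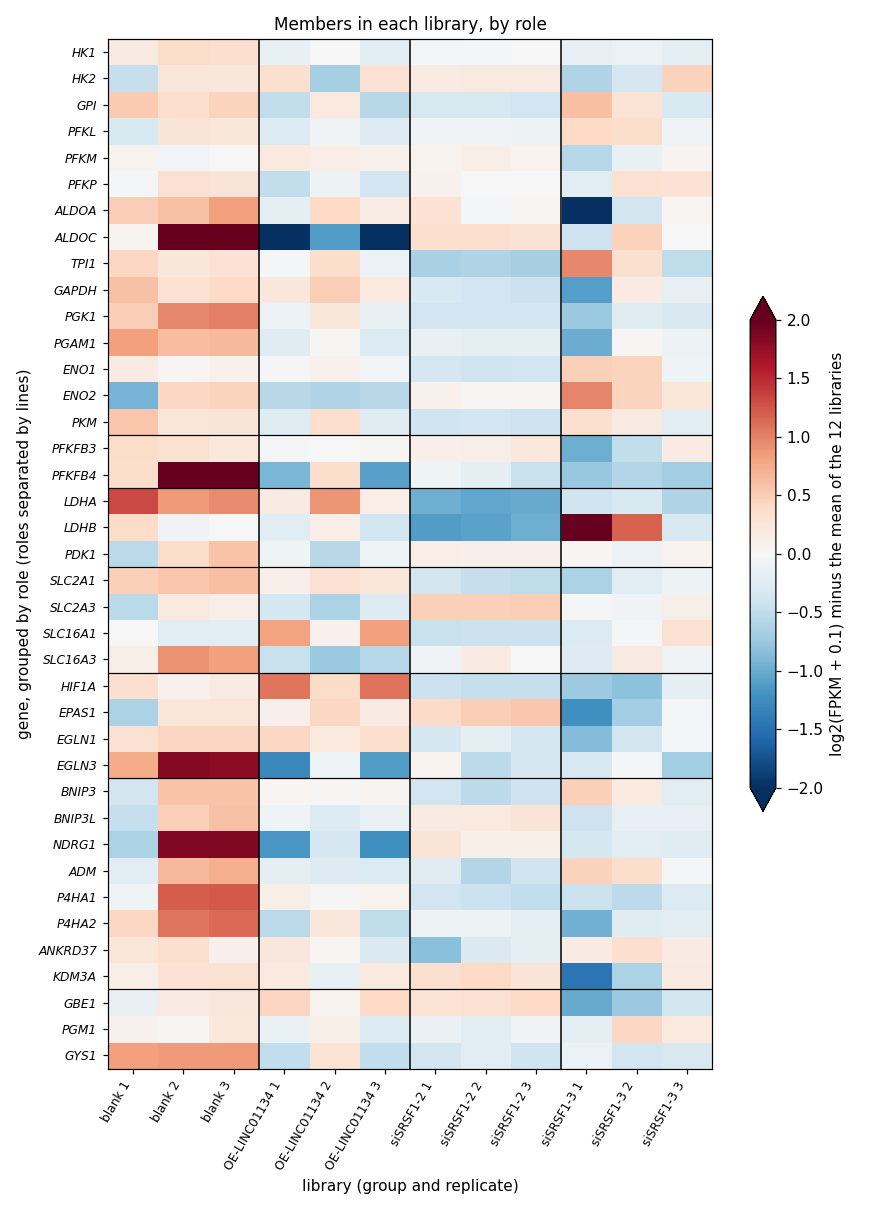
Each row is a member, grouped by role with lines between roles, and each column a library. Colour gives log2(FPKM + 0.1) minus the mean of that gene over the 12 libraries, and colours saturate at -2 and 2. The blank columns are mostly red, blank replicate 1 is pale or blue for several hypoxia-response genes, and LDHA and LDHB are blue in all 3 siSRSF1-2 libraries.

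The blank libraries themselves were split over part of the hypoxia-response genes and over some members of other roles. NDRG1, a gene widely used as a sign of hypoxia, read 12.3 FPKM in blank replicate 1 and 68.7 and 68.9 in replicates 2 and 3, which is 5.60 times higher on average. The aldolase ALDOC read 2.87 against 13.3 and 15.5. PFKFB4, an enzyme that makes and degrades fructose-2,6-bisphosphate, the activator of phosphofructokinase, read 2.11 against 7.02 and 6.79. In each case replicate 1 held a small part of the level of the other blank libraries. The neuronal-type enolase ENO2 read 24.8 against 63.0 and 64.2. The prolyl 4-hydroxylase subunit P4HA1, which serves collagen folding, read 18.1 against 44.8 and 45.3. With PDK1, a kinase that restrains the entry of pyruvate into mitochondria (0.861 against 1.70 and 1.96), 6 of 38 members were more than 2-fold lower in blank replicate 1 than the mean of replicates 2 and 3, against 7.14% of all genes tested, and 0 were more than 2-fold higher, against 3.94%. The mitophagy receptors BNIP3 (7.91 against 15.4 and 15.3) and BNIP3L (17.7 against 34.1 and 36.5) and the peptide hormone gene ADM (1.94 against 3.64 and 3.87) were just short of 2-fold. In the other direction, LDHA read 216 in replicate 1 against 157 and 167, and GYS1 was level at 12.1, 12.4 and 12.3. Of the 8 hypoxia-response genes 2 were more than 2-fold lower. ANKRD37 and KDM3A, of the same role, stood at 1.03 and 0.875 times the mean of replicates 2 and 3. SLC2A1, PFKFB3 and EGLN1 stood at 0.935, 1.09 and 0.914 times that mean. CA9, the carbonic anhydrase that serves as a standard hypoxia marker, had 0 FPKM in replicate 1 and 10.6 and 9.85 in replicates 2 and 3, and it was singled out after its values were seen. CA9, CA12 and STC1 are among 43 further HIF target genes but reached the minimum of 0.5 FPKM for testing only through the blank libraries. No count over that list is therefore given for the split. All of these values compare 1 library with 2 and carry no test. Comparisons with blank cells are therefore given below also without replicate 1 where that changes a call.

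**Figure D2:**
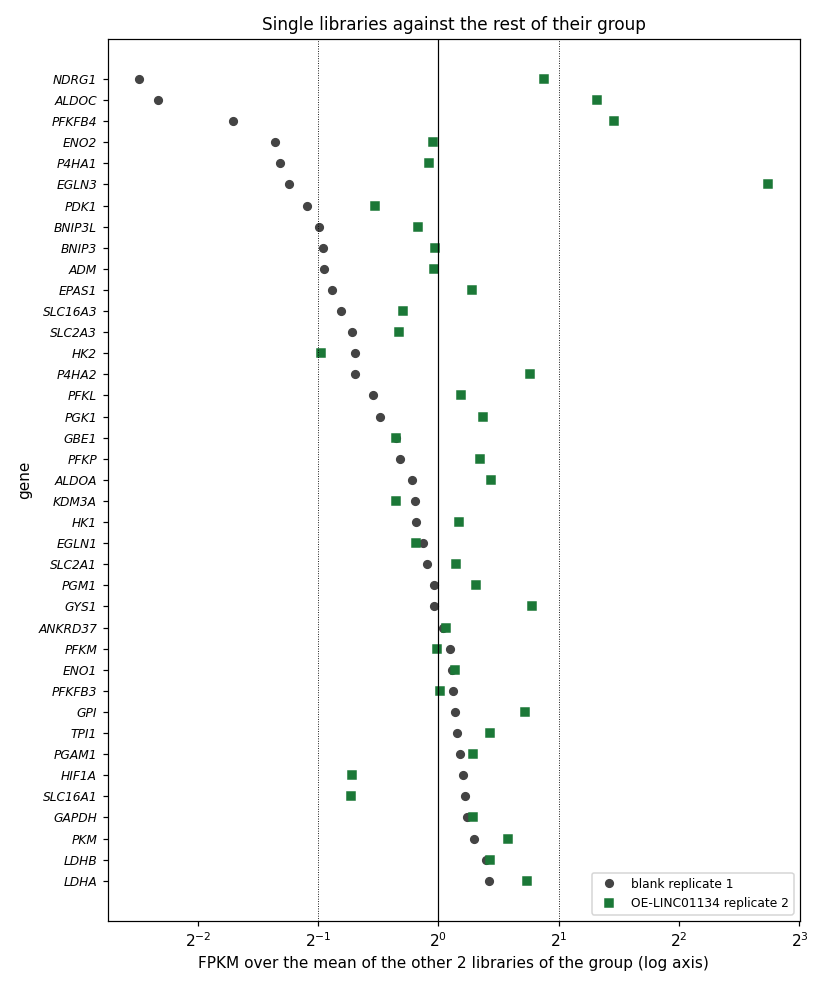
For each member, circles give the FPKM of blank replicate 1 divided by the mean of blank replicates 2 and 3, and squares give OE-LINC01134 replicate 2 divided by the mean of OE-LINC01134 replicates 1 and 3, on a log axis with dotted lines at 2-fold. NDRG1, ALDOC and PFKFB4 lie farthest to the left for blank replicate 1, and all 3 lie to the right for OE-LINC01134 replicate 2.

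The siSRSF1-2 libraries were compared with blank cells to learn which members changed when SRSF1 was knocked down. At an adjusted p under 0.05, 9 of the 15 glycolytic enzymes were lower and 0 higher, against 12.8% and 14% of all genes tested. Of these 9, only PGK1 also fell by more than 1 on the log2 scale. The largest fall among the members was that of LDHA, which stands at the end of the chain. LDHA (ENSG00000134333, chromosome 11 from 18394388 to 18408425) read 216, 157 and 167 FPKM in blank cells and 44.0, 42.0 and 43.0 with siSRSF1-2. All siSRSF1-2 libraries were thus far below all blank libraries, at 23.9% of the blank mean. On the scale of log2(FPKM + 0.1) LDHA fell by 2.05 (SE 0.12, limma adjusted p = 0.000925). LDHB (ENSG00000111716, chromosome 12 from 21635342 to 21757857), the subunit that favours the conversion of lactate to pyruvate, read 41.3, 30.6 and 32.2 in blank cells and 14.7, 15.2 and 16.1 with siSRSF1-2. It fell by 1.16 (SE 0.12, adjusted p = 0.00276), again without overlap. The ratio of LDHA to LDHB, which does not depend on the scaling of a library, was 5.23, 5.13 and 5.18 in the blank libraries and 2.98, 2.76 and 2.67 with siSRSF1-2. It was therefore nearly constant over blank cells, blank replicate 1 included, and lower in each siSRSF1-2 library.

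GYS1 (ENSG00000104812, chromosome 19 from 48968125 to 48993310), the glycogen synthase of muscle and most other tissues, read 12.1, 12.4 and 12.3 in blank cells and 5.26, 5.82 and 5.11 with siSRSF1-2, so that each group was tight and the groups were far apart. It fell by 1.17 (SE 0.07, adjusted p = 0.000951). PGK1 (ENSG00000102144, chromosome X from 77910739 to 78129296), the phosphoglycerate kinase that makes the first ATP of the chain, read 114, 157 and 163 and then 62.4, 62.2 and 61.8. It fell by 1.20 (SE 0.14, adjusted p = 0.00341). P4HA2 (ENSG00000072682, chromosome 5 from 132191838 to 132295315), a second collagen prolyl 4-hydroxylase subunit, read 9.57, 15.1 and 15.8 and then 6.63, 6.65 and 6.24, and it fell by 1.01 (SE 0.19, adjusted p = 0.0145). PFKFB4 (ENSG00000114268, chromosome 3 from 48517684 to 48562015) read 2.11, 7.02 and 6.79 and then 1.52, 1.41 and 1.17, and it fell by 1.71 (SE 0.46, adjusted p = 0.0405). For P4HA2 and PFKFB4 blank replicate 1 lay between the siSRSF1-2 libraries and the other blank libraries, and both genes missed the threshold when any single library other than that one was left out. Coordinates are those of the deposited file, and their build is not given in the sources used here.

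In all, 6 of 38 members were lower with siSRSF1-2 at an adjusted p under 0.05 and a log2 fold change beyond -1, which was the threshold for a call in either direction, and 0 were higher, while 2.73% of all genes tested were lower and 2.22% higher. The median log2 fold change was -0.66 over the members and 0.02 over all genes tested. Without a minimum fold change, 18 members (47.4%) were lower and 0 higher, against 12.8% of all genes lower and 14% higher. The further 12 were ALDOA, EGLN1, ENO1, GAPDH, GPI, HIF1A, HK1, PGAM1, PKM, SLC16A1, SLC2A1 and TPI1. They included 8 of the 15 glycolytic enzymes, PGK1 making a ninth. GAPDH read 1271, 1042 and 1117 in blank cells and 684, 649 and 625 with siSRSF1-2, a fall of 0.80 (SE 0.09, adjusted p = 0.00308). ENO1 read 652, 595 and 615 and then 452, 441 and 447, a fall of 0.47 (SE 0.06, adjusted p = 0.00374). PKM read 374, 303 and 307 and then 193, 196 and 192, a fall of 0.75 (SE 0.09, adjusted p = 0.00384). These 3 abundant enzymes were lower in each siSRSF1-2 library than in any blank library.

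TPI1 read 288, 254 and 264 in blank cells and 139, 142 and 136 with siSRSF1-2, and it fell by 0.95 (SE 0.07, adjusted p = 0.00105). SLC2A1, the main glucose carrier of proliferating cells, fell by 0.99 (SE 0.07, adjusted p = 0.00102), from 26.7 ± 1.12 to 13.4 ± 0.651 FPKM. The groups of libraries did not overlap for 23 members that were lower (60.5%) and 3 that were higher (7.89%), against 24.2% and 25.3% of all genes tested. The 3 were the glucose carrier SLC2A3, at 17.7 ± 4.61 and then 25.3 ± 0.112 FPKM, EPAS1 and the glycogen branching enzyme GBE1, and the adjusted p was over 0.05 for each. HK2 (18.3 ± 4.61 and 20.1 ± 0.0630), PFKM (15.7 ± 0.683 and 16.6 ± 0.30), KDM3A, a histone demethylase (3.31 ± 0.250 and 3.51 ± 0.176), and BNIP3L (29.5 ± 10.2 and 28.2 ± 0.904) had close group means. Without blank replicate 1, 12 members passed as lower, with ADM, ALDOC, BNIP3, NDRG1, P4HA1 and SLC2A1 added to the 6, against 3.74% of all genes lower and 3.03% higher.

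**Figure D3:**
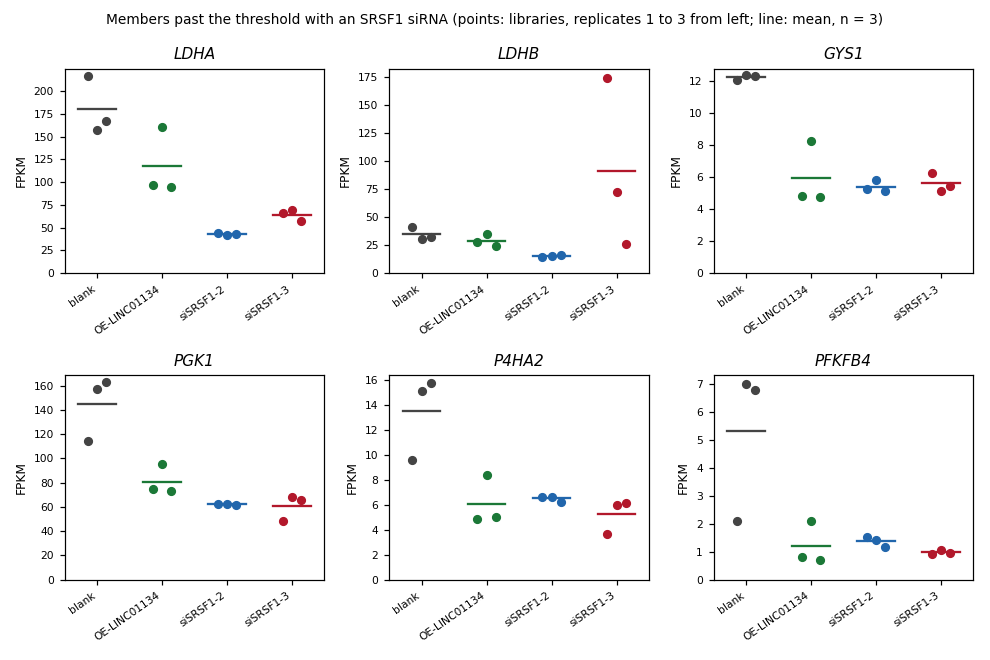
Each panel gives the FPKM of a member in the 12 libraries on an axis that starts at 0. Points are libraries (replicates 1 to 3 from left) and lines are means of 3. The siSRSF1-2 points lie below all blank points in each of the 6 panels, while LDHB reaches 174 FPKM in siSRSF1-3 replicate 1.

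With siSRSF1-3, LDHA and GYS1 were lower than in blank cells and no member was higher. LDHA read 65.9, 69.9 and 57.3 FPKM, at 35.8% of the blank mean, and fell by 1.47 (SE 0.22, adjusted p = 0.0453). GYS1 read 6.25, 5.17 and 5.45, and it fell by 1.12 (SE 0.16, adjusted p = 0.0453). Both were lower in each siSRSF1-3 library than in any blank library. These 2 of 38 members were past the threshold as lower and 0 as higher, against 0.929% and 0.331% of all genes tested. The member median was -0.53 and that of all genes -0.01. The groups did not overlap for 15 members that were lower (39.5%) and for 0 that were higher, against 18% and 19.2% of all genes.

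Several members had means far below those of blank cells but an adjusted p over 0.05. PGK1 read 48.6, 68.4 and 65.7 FPKM (log2 fold change -1.25, SE 0.25, adjusted p = 0.0569). P4HA2 read 3.63, 6.01 and 6.14 (-1.35, SE 0.29, adjusted p = 0.0653), and PFKFB4 read 0.919, 1.05 and 0.966 (-2.15, SE 0.46, adjusted p = 0.0630). The siSRSF1-3 libraries of all 3 genes lay below all blank libraries. P4HA1 read 14.4, 13.5 and 15.9, against 14.8, 14.3 and 13.7 with siSRSF1-2, and its adjusted p was 0.109.

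The abundant enzymes scattered between the siSRSF1-3 libraries. GAPDH read 395, 941 and 754 FPKM, TPI1 422, 271 and 152, ENO1 808, 793 and 545, and PKM 321, 290 and 219. Replicate 1 thus had the lowest GAPDH and the highest TPI1, ENO1 and PKM of the group. LDHB varied most, with 174, 72.4 and 25.7 FPKM, so that replicates 1 and 2 were above all blank libraries and replicate 3 below them (95% interval of the log2 fold change -0.51 to 2.50). The LDHA to LDHB ratio was 0.378, 0.966 and 2.23, below that of each blank and each siSRSF1-2 library. LDHB was thus more abundant than LDHA in 2 of the 3 siSRSF1-3 libraries and in none of the other 9. ALDOA, KDM3A and HK2 ran the other way, with the lowest value in replicate 1 (0.234, 0.950 and 11.7) and the highest in replicate 3 (1.45, 3.18 and 24.5).

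Both siSRSF1-3 calls rested on the libraries used. LDHA and GYS1 missed the threshold when any single blank library, or siSRSF1-3 replicate 1 or 2, was left out. Their limma adjusted p was then up to 0.219, while the fold change stayed between -1.56 and -1.06. Of all genes 0 passed without blank replicate 2, blank replicate 3 or siSRSF1-3 replicate 2, so these losses are not particular to LDHA and GYS1. Without siSRSF1-3 replicate 1, 0.0684% of all genes were lower and 0.0057% higher. Without blank replicate 1 NDRG1 and PFKFB4 passed in place of LDHA and GYS1, with 0.16% of all genes lower and 0.0057% higher. Without siSRSF1-3 replicate 3, 10 members were lower and LDHB was higher, against 11.4% of all genes lower and 12.5% higher. The 10 were ALDOA, EGLN1, GYS1, KDM3A, LDHA, P4HA2, PFKFB3, PFKFB4, PGAM1 and PGK1. With scaling by the reads of each library, the median of all genes moved to -0.26 and that of the members to -0.79, and LDHA and GYS1 remained lower.

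**Figure D4:**
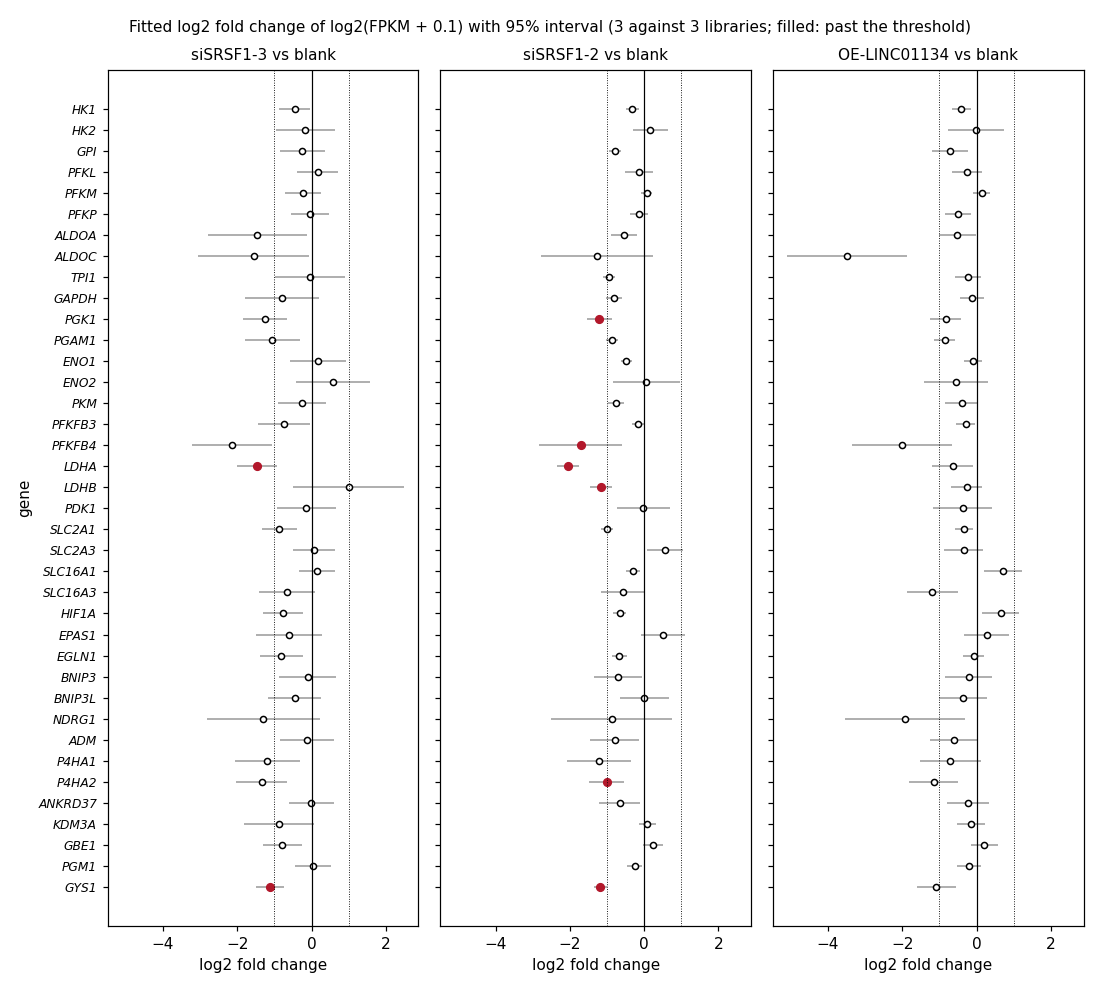
Circles give the fitted log2 fold change of each tested member against blank cells and lines its 95% interval, from 3 against 3 libraries, on the scale of log2(FPKM + 0.1). Filled circles passed the threshold, 2 with siSRSF1-3, 6 with siSRSF1-2 and 0 with OE-LINC01134, and dotted lines mark a log2 fold change of -1 and 1. The 3 panels share the same blank libraries.

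The siRNAs, which share their target, were then compared with each other. Of 38 members 0 passed the threshold in either direction, against 0.0513% of all genes lower and 0.0342% higher with siSRSF1-3. In the same limma fit without adjustment of p, 2 members were past 0.05 and the fold change minimum as lower (EPAS1 and GBE1) and 1 as higher (LDHB), which are smaller shares than the 7.42% and 9.01% of all genes. The count was also 0 with voom on the recovered reads. The member median was -0.06 and that of all genes -0.02. The smallest adjusted p among the members was that of GBE1 (ENSG00000114480, chromosome 3 from 81489699 to 81762161), which adds branches to glycogen. GBE1 read 13.2, 16.7 and 17.2 FPKM in blank cells, 17.7, 18.2 and 19.3 with siSRSF1-2, and 7.26, 8.72 and 11.3 with siSRSF1-3. Its siSRSF1-3 libraries were below all 9 others, with a difference between siRNAs of -1.03 (95% interval -1.47 to -0.60, adjusted p = 0.0712). The difference for LDHA was 0.58 (interval 0.27 to 0.89, adjusted p = 0.0759), and each siSRSF1-3 library was above each siSRSF1-2 library. LDHB differed by 2.16 (interval 0.56 to 3.75, adjusted p = 0.0850). For GYS1 the difference was 0.06 (interval -0.25 to 0.36), for PGK1 -0.04 (interval -0.45 to 0.36) and for P4HA1 0.03 (interval -0.24 to 0.30). These intervals thus lay within -0.45 and 0.36. Side by side, with the same blank libraries in both, PGK1 stood at 42.9% of blank cells with siSRSF1-2 and 42.1% with siSRSF1-3, GYS1 at 44.0% and 45.8%, P4HA1 at 39.5% and 40.4%, SLC2A3 at 143% and 103%, and TPI1 at 51.8% and 105%. Without siSRSF1-3 replicate 3, EPAS1, GBE1 and KDM3A passed as lower with siSRSF1-3 and LDHB and TPI1 as higher. In that fit 14.5% of all genes were lower and 16% higher, so that these 5 of 38 members were no more than the share of all genes.

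With OE-LINC01134, 0 of 38 members passed the threshold, against 0.593% of all genes lower and 0.257% higher. Without adjustment of p, this limma fit put 6 members past 0.05 and the fold change minimum as lower and 0 as higher, against 5% and 2.45% of all genes, and 1 (GYS1, lower) passed with voom on the recovered reads, against 1.35% of all genes lower and 0.559% higher. The member median was -0.35 and that of all genes 0.05. PGAM1 (ENSG00000171314, chromosome 10 from 97426160 to 97433441), the phosphoglycerate mutase, had the smallest adjusted p. It read 155, 136 and 139 FPKM in blank cells and 74.3, 89.9 and 72.7 in OE-LINC01134 cells. The groups did not overlap, and the log2 fold change of -0.86 (SE 0.12, adjusted p = 0.0402) was short of the minimum. GYS1 read 4.82, 8.24 and 4.79 (-1.08, SE 0.22, adjusted p = 0.0666), with replicate 2 between the other 2 libraries and the blank cells. PGK1 read 74.4, 95.2 and 72.9 (-0.83, adjusted p = 0.0687) and P4HA2 4.85, 8.37 and 5.0 (-1.15, adjusted p = 0.0793). PFKFB4 read 0.814, 2.10 and 0.716 (-2.01, adjusted p = 0.0984). In each of these genes replicate 2 was the highest of its group and closest to the blank cells.

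LDHA read 97.4, 160 and 95.1 FPKM with OE-LINC01134, so that replicate 2 was within the range of the blank libraries. The LDHA to LDHB ratio was 3.56, 4.58 and 3.87, below all blank libraries and above all siRNA libraries. ALDOC read 0.578, 1.21 and 0.394, at 6.89% of the blank mean, with 33 to 1486 reads per library over the series (log2 fold change -3.49, SE 0.68, adjusted p = 0.0608). NDRG1 read 8.44, 15.1 and 8.05, and its replicate 2 was above blank replicate 1. The 4 most abundant enzymes overlapped with blank cells, since GAPDH read 984, 1191 and 969, ENO1 563, 617 and 561, PKM 216, 323 and 216, and TPI1 213, 278 and 200. The lactate carrier SLC16A1 had higher values in each library, at 54.9, 33.2 and 55.2 against 26.9 to 31.5 in blank cells (0.71, adjusted p = 0.108), and SLC16A3 had lower ones, at 0.560, 0.435 and 0.506 against 0.871 to 1.58 (-1.20, adjusted p = 0.0793). Groups did not overlap for 13 members that were lower (34.2%) and 3 that were higher (7.89%, HIF1A, PFKM and SLC16A1), against 13.8% and 16.8% of all genes.

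The OE-LINC01134 count depended on blank replicate 1 and OE-LINC01134 replicate 2, as 7 members were lower without the former, 4 without the latter, and 8 lower and 1 higher without both, which was tried once the libraries had been seen. Of all genes 3.68%, 5.87% and 8.84% were lower in these fits and 1.81%, 2.91% and 5.1% higher. The 8 were ALDOC, GYS1, NDRG1, P4HA1, P4HA2, PFKFB4, PGK1 and SLC16A3, and SLC16A1 was higher by 1.03. ALDOC, P4HA2 and PFKFB4 passed as lower in all 3 of these fits. In OE-LINC01134 replicate 2 itself 0 of 38 members were more than 2-fold lower than the mean of replicates 1 and 3, against 5.20% of all genes, and 2 (ALDOC and PFKFB4) were more than 2-fold higher, a share close to the 6.13% of all genes. VIM, a mesenchymal marker, was likewise high in replicate 2, with 68.7, 248 and 69.4 FPKM in OE-LINC01134 cells and 244, 181 and 195 in blank cells. Its part in the result was not tested.

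The oxygen-sensing genes did not move alike in every comparison with blank cells. All 3 that were tested had fitted values below 0 with siSRSF1-3, 2 with siSRSF1-2 and 1 with OE-LINC01134. HIF1A (ENSG00000100644, chromosome 14 from 61695513 to 61748259) read 43.0, 36.4 and 38.3 FPKM in blank cells, 25.3, 24.5 and 24.5 with siSRSF1-2, 20.5, 19.3 and 30.3 with siSRSF1-3, and 72.2, 44.1 and 72.8 with OE-LINC01134. All siRNA libraries lay below all blank libraries and all OE-LINC01134 libraries above them. With siSRSF1-2 it was lower by 0.66 (SE 0.08, adjusted p = 0.00339), with siSRSF1-3 the log2 fold change was -0.77 (SE 0.22, adjusted p = 0.102), and with OE-LINC01134 it was 0.65 (SE 0.21, adjusted p = 0.122). OE-LINC01134 was not tested against the siRNAs.

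EPAS1 (ENSG00000116016, chromosome 2 from 46293667 to 46386703) encodes HIF-2α, the related oxygen-regulated factor. It read 6.20, 11.5 and 11.4 in blank cells, 12.6, 13.6 and 14.1 with siSRSF1-2, 4.05, 5.98 and 9.36 with siSRSF1-3, and 10.4, 12.9 and 10.8 with OE-LINC01134. Blank replicate 1 was near the siSRSF1-3 libraries and the other blank libraries near the OE-LINC01134 ones. No comparison of EPAS1 passed, and the difference between the siRNAs was -1.12 (95% interval -1.85 to -0.40, adjusted p = 0.0801). The ratio of HIF1A to EPAS1 was 2.00, 1.80 and 1.74 with siSRSF1-2, lower than in any other library, where it was 3.17 to 6.95.

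EGLN1 (ENSG00000135766, chromosome 1 from 231363751 to 231425044), the main prolyl hydroxylase acting on HIF-1α, read 6.46, 7.05 and 7.09 in blank cells, 4.11, 4.61 and 4.13 with siSRSF1-2, 2.81, 4.02 and 5.11 with siSRSF1-3, and 7.01, 5.99 and 6.60 with OE-LINC01134. It was lower with siSRSF1-2 by 0.67 (SE 0.08, adjusted p = 0.00395). With siSRSF1-3 the value was -0.81 (SE 0.24, adjusted p = 0.104), again without overlap. EGLN3, a prolyl hydroxylase that is itself raised by HIF, read 0.388, 0.932 and 0.906 in blank cells, 0.203, 0.101 and 0.126 with siSRSF1-2, 0.132, 0.187 and 0.0784 with siSRSF1-3, and 0.0188, 0.174 and 0.0333 with OE-LINC01134. The 9 treated libraries were below the 3 blank libraries, at levels too low for the test used.

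**Figure D5:**
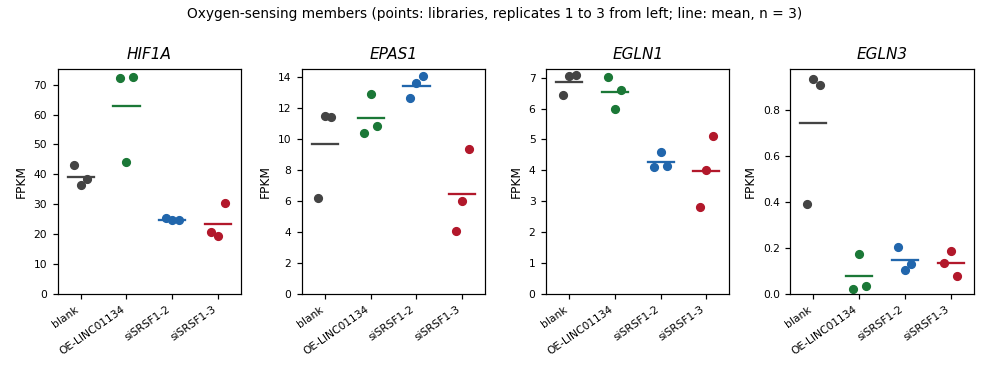
Each panel gives the FPKM of an oxygen-sensing gene in the 12 libraries, with lines at the mean of 3 and axes that start at 0. HIF1A lies at 19.3 to 30.3 FPKM in the siRNA libraries and at 44.1 to 72.8 with OE-LINC01134, on either side of blank cells at 36.4 to 43.0, whereas the EPAS1 points of the siRNAs do not overlap.

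The remaining hypoxia-response genes gave no further call with all libraries. BNIP3 read 12.9 ± 4.31 FPKM in blank cells, 7.59 ± 0.404 with siSRSF1-2, 11.7 ± 2.80 with siSRSF1-3 and 10.6 ± 0.158 with OE-LINC01134. ADM read 3.15 ± 1.05, 1.71 ± 0.213, 2.79 ± 0.485 and 1.93 ± 0.0683 in the same order. ANKRD37, an ankyrin repeat gene raised by HIF-1α, read 0.978 ± 0.0819, 0.595 ± 0.155, 0.976 ± 0.0789 and 0.826 ± 0.164. NDRG1 read 49.96 ± 32.6, 21.2 ± 1.24, 15.8 ± 0.806 and 10.5 ± 3.97, where the large SD in blank cells is the split between replicate 1 and the others. Among the glycogen enzymes the phosphoglucomutase PGM1 read 10.3 ± 0.744, 8.59 ± 0.480, 10.7 ± 2.13 and 8.92 ± 1.23, against the marked fall of GYS1.

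The other genes of these pathways were taken from lists written from gene function, with earlier results of these data known. Of 43 tested further targets of HIF, CA9, the carbonic anhydrase CA12 and STC1 reached the minimum of 0.5 FPKM only through the blank libraries, where they were high, so that their differences from blank cells are given no test here. CA12 read 1.74, 5.05 and 5.17 FPKM in blank cells and 0.0813 to 1.35 in the other 9 libraries. Among the other 40, 2 were lower with siSRSF1-3, 7 with siSRSF1-2 and 1 with OE-LINC01134, and 0 were higher in each. Of all genes tested 0.929%, 2.73% and 0.593% were lower and 0.331%, 2.22% and 0.257% higher in the same order. With siSRSF1-3 these were the lysyl hydroxylases PLOD1 and PLOD2, with log2 fold changes of -1.28 and -1.16. Their calls were lost in 10 and 11 of 18 alternative settings of the analysis, several of which passed no gene at all. With OE-LINC01134 the adenylate kinase AK4 fell by 1.04, a call that was lost in 9 of 19 alternative settings. With siSRSF1-2 the 4 with the smallest adjusted p were PLOD1 (log2 fold change -1.59), PLOD2 (-1.28), the stress-response gene DDIT4 (-1.36) and the lipid droplet gene HILPDA (-1.19). The medians of these 40 genes were -0.52 with siSRSF1-3, -0.43 with siSRSF1-2 and -0.54 with OE-LINC01134, against -0.01, 0.02 and 0.05 over all genes tested. PLOD1 read 54.5, 63.6 and 65.3 FPKM in blank cells, 19.9, 20.6 and 19.8 with siSRSF1-2, and 28.8, 26.8 and 20.2 with siSRSF1-3, so that the groups were clearly apart.

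Of 29 other glycolysis genes tested, LDHD and the glucose carrier SLC2A12 reached the minimum only with the blank libraries, and of the other 27, 0 passed in any comparison by limma. The medians of these 27 were 0.07 with siSRSF1-3, -0.16 with siSRSF1-2 and 0.08 with OE-LINC01134. Of 12 further oxygen-sensing genes, HIF3A, a HIF subunit, reached the minimum only through the OE-LINC01134 libraries, so that it is given no test here. It read 0.63, 0.25 and 0.16 FPKM in blank cells and 3.11, 2.40 and 3.08 in OE-LINC01134 cells, and 0 of the other 11 passed in any comparison. Of 20 further glycogen genes, PGM2L1, which makes glucose-1,6-bisphosphate, passed as lower with siSRSF1-3 by 2.02, and the liver-type phosphorylase PYGL with siSRSF1-2 by 1.38. In these comparisons 0.929% and 2.73% of all genes were lower. Of 10 genes of the pentose phosphate pathway, which branches off at glucose-6-phosphate, 0 passed in any comparison by limma with the fold change minimum. Without that minimum 5 were lower with siSRSF1-2, against 12.8% of all genes.

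Some members share positions or sequence with other genes, and the files do not say how such reads were counted or whether strand was used. ALDOA, usually an abundant enzyme, read 2.25 ± 0.276 FPKM in blank cells, and a second entry for the same gene lies on the same strand over 99.4% of it, so that its level is uncertain. ALDOC lies wholly within another protein-coding entry on its strand, with a mean of 1.58 FPKM over the 12 libraries against 4.41 for ALDOC. P4HA2 overlaps with PDLIM4 on the opposite strand, which had a mean of 72.0 FPKM against 7.83 for P4HA2. PGK1 overlaps on its strand, over 63.9% of its span, with the gene of ATPase copper transporting alpha. That gene had a mean of 2.49 FPKM against 87.2 for PGK1. SLC16A3, PFKFB4, EGLN3 and ANKRD37 are further examples of overlap with expressed genes. In all, 29 of 39 members overlap with another entry, 21 of them with one on the same strand. BNIP3 has 39 listed pseudogenes whose summed level was 44.2% of its own, while for LDHA, GAPDH and PGK1 the pseudogenes summed to 0.439%, 0.975% and 0.204%.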

How the data were processed

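The values deposited by the authors are FPKM per gene, with gene length and coordinates. The authors sequenced paired ends and compared groups with DESeq2. The aligner, counter and genome build are not given in the sources used here: the labels and the submitters' processing notes name mouse and GRCm38/mm10, but the identifiers are human. The FPKM carried median-of-ratios scaling over the 12 libraries, and multiplied by gene length they gave whole reads for 100% of values (tolerance 0.01 read).

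The 3 + 3 libraries of each comparison were tested with limma (version 3.58.1, R version 4.3.3, lmFit and eBayes with trend) on log2(FPKM + 0.1), with Benjamini-Hochberg adjustment, over 17538 genes whose mean was 0.5 FPKM or more. A fold change on this scale understates that of low genes. Lists are described by counts and medians. Members and lists were chosen with earlier results of these data known. All members may be named, and library values are given for those past the threshold or with the smallest adjusted p of a comparison, the 5 most abundant in blank cells, and the 4 oxygen-sensing genes. Values of other members and the ratios were added after the data were seen. On simulated data for 3 against 3 siSRSF1-2 libraries, 183 of 200 changed genes and 6 others of 17538 were called. Pairs of siSRSF1-2 libraries had a Pearson r of 0.974 to 0.976, against 0.935 to 0.974 in blank cells and 0.861 to 0.944 with siSRSF1-3. Recovery of changed genes at the wider spread of the blank, OE-LINC01134 and siSRSF1-3 libraries was not tested. All 199 symbols looked up were matched. Splicing was not analysed.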

Additional observations from a re-analysis of the deposited data

Results flagged for a closer look

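Of the 38 members tested, 4 had every siSRSF1-2 library on 1 side of the blank mean and every siSRSF1-3 library on the other, against 13.2% of all genes tested, so that this number is not particular to the members. GBE1 read 17.7 to 19.3 FPKM with siSRSF1-2 and 7.26 to 11.3 with siSRSF1-3, around a blank mean of 15.7, with a log2 difference between siRNAs of -1.03. EPAS1 read 12.6 to 14.1 and 4.05 to 9.36 around 9.70, with a difference of -1.12. KDM3A read 3.34 to 3.69 and 0.950 to 3.18 around 3.31, with a difference of -0.96. ENO2 went the other way, at 47.8 to 49.8 and 55.5 to 93.2 around 50.6, with a difference of 0.52. The limma fit between the siRNAs gave adjusted p of 0.0712, 0.0801, 0.125 and 0.117, so none passed the threshold, and no other test of the opposite directions was made. The blank means of EPAS1 and ENO2 lie between blank replicate 1 and the other blank libraries. Groups of 3 libraries are too small for a check of single outlying libraries.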

How the results depend on the processing

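With siSRSF1-3, 2 members passed in the main analysis, 0 with a pseudocount of 0.01, with FPKM rescaled to the same sum and with a replicate block, 1 without a filter on low values and without a trend, 4 with voom on recovered reads, 8 in one fit over all 4 groups and 9 at an unadjusted p, all of them lower. Of all genes 2.38%, 6.71% and 7.24% were lower and 1.07%, 7.1% and 7.57% higher in the last 3. The main analysis had 0.929% and 0.331%, so that the count over all genes rose as well. With FPKM rescaled to the same sum and with the block, 0 of all genes were lower, so that these settings say nothing about the members. With a pseudocount of 0.01, 0.268% of all genes were lower and 0.0912% higher. Without a filter on low values the shares were 0.08% and 0.017%, and without a trend 0.69% and 0.182%. With siSRSF1-2 the count of 6 became 18 without a minimum fold change (12.8% of all genes lower and 14% higher). It was 7 with a mean FPKM of at least 1 (2.56% lower), with voom (3.02%) and at an unadjusted p (3.43%). It was 5 with a pseudocount of 1 (1.15%) and without a trend (2.62%). It was 4 without a filter on low values (0.565%), on own read totals (2.43%) and on equal sums (1.94%). One fit over all 4 groups also gave 4 (1.03%), and LDHB did not pass in it. With its libraries averaged to 1 the count was 0, where 0 of all genes passed, so that this setting says nothing about the members. With OE-LINC01134 the count of 0 became 1 with voom (1.35% of all genes lower, 0.559% higher) and 1 without a minimum fold change (0.73% and 0.45%). The count became 5 in one fit over all 4 groups (2.94% and 0.992%) and 6 at an unadjusted p (5% and 2.45%). Without both libraries that stand apart it became 9 (8.84% lower and 5.1% higher). Between the siRNAs it became 3 in one fit over all 4 groups (7.18% of all genes lower and 8.39% higher) and at an unadjusted p (7.42% and 9.01%). Leaving out single libraries gave 0 to 11 members with siSRSF1-3, 4 to 12 with siSRSF1-2, 0 to 7 with OE-LINC01134 and 0 to 5 between the siRNAs. The shares of all genes that were lower ran from 0 to 11.4%, 1.89% to 3.74%, 0 to 5.87% and 0 to 14.5% in the same order, and several fits without 1 library passed no gene at all. The cause of these changes was not tested.

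The member median with siSRSF1-3 moved from -0.53 to -0.79 on own read totals and -0.97 on equal sums, where all genes moved to -0.26 and -0.43. Between the siRNAs it moved from -0.06 to -0.35 and -0.60, and all genes to -0.31 and -0.57. With siSRSF1-2 it moved from -0.66 to -0.52 with a pseudocount of 1, and leaving out single libraries gave -0.65 to -0.51 (-0.51 without blank replicate 3). Single omissions gave -0.70 to -0.44 with siSRSF1-3, -0.49 to -0.31 with OE-LINC01134 and -0.10 to 0.06 between the siRNAs.

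The block gave 5 members with siSRSF1-2, 0 with OE-LINC01134 and 0 between the siRNAs. Of all genes 2.17%, 0.0171% and 0 were lower in these fits, so that the counts of 0 say little about the members. Deviations of same-numbered libraries correlated between -0.08 and 0.04, so the numbers were taken as names only. Over 31 results for single genes and 580 alternatives, 422 kept their side of the threshold, 149 lost it, 9 gained it and 0 changed direction. The 31 include the targets SRSF1 and LINC01134. They also include CA12, STC1, SLC2A12 and HIF3A, which reached the minimum FPKM only through the group where they were high. These totals therefore do not describe the members alone. LDHA and GYS1 with siSRSF1-2 lost their call in 1 of 19 alternatives each, PFKFB4 in 12 and P4HA2 in 11. In genes with few reads, such as EGLN3 and ANKRD37, depth limits what can be seen. A count of 0 allows up to 3 reads by counting error alone.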
